A study of Bos taurus with 36 samples.

Results

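The 7 genes described here encode the natriuretic peptides NPPA, NPPB and NPPC, their receptors NPR1, NPR2 and NPR3, and CORIN, the protease that activates atrial natriuretic peptide. They were taken as the rows of the deposited count table whose Entrez identifier carries one of these symbols in the bovine RefSeq gene table, which gave 7 of 35092 rows. RNA was sequenced from the heart (9 libraries), gonads (9 libraries) and liver (8 libraries) of 10 male bovine fetuses collected at Day 42 of pregnancy, and from blood samples of their 10 dams. The heifers had received a Day 7 embryo either on Day 7 of the cycle (ET_D7, synchronous transfer) or on Day 9 (ET_D9, asynchronous transfer), with 5 fetuses from each group. Fetuses are numbered by weight, from fetus 1 (1.253 g) to fetus 10 (1.69 g). All ET_D7 fetuses (up to 1.37 g) were lighter than all ET_D9 fetuses (from 1.396 g), so transfer group and weight cannot be told apart. The heart of fetus 7, the gonads of fetus 2 and the livers of fetuses 6 and 7 were not analysed here. The organs were whole dissected tissues, in which fewer cells of a type and less RNA per cell cannot be told apart.

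Atrial natriuretic peptide (from NPPA) and B-type natriuretic peptide (from NPPB) are hormones made by heart muscle cells that promote salt excretion and lower blood pressure. In the embryo, NPPA and NPPB are classical markers of the differentiating chambers of the heart. C-type natriuretic peptide (from NPPC) acts mostly on neighboring cells and is best known for its effects on bone growth and on the ovarian follicle. NPR1, the receptor for the first 2 peptides, and NPR2, the receptor for C-type natriuretic peptide, are membrane guanylyl cyclases that raise cyclic GMP inside the cell. NPR3 lacks the cyclase domain and removes the peptides from the circulation. Corin is a membrane serine protease of heart muscle that cleaves the NPPA precursor.

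The total count per library was 20930367 to 35857434 in the heart, 22762065 to 39649051 for gonads, 18231089 to 34454772 for liver and 26602415 to 40812354 for the blood of the dams. Genes encoded in the mitochondrial genome made up 17.1% to 57.3% of all counts (the mitochondrial share) among the hearts, the widest range of the 4 tissues. On the normalization of each tissue, cardiomyocyte markers summed to 17154 to 31569 CPM (library counts rescaled to a common total) in the heart libraries and hepatocyte markers to 8161 to 13625 CPM in the liver libraries. In the gonad libraries the 7 Sertoli and Leydig cell markers summed to 16.0 to 25.8 CPM, against 16.7 to 25.9 CPM in the hearts, with a median of 9.91 CPM from STAR alone in the gonads. By gene, SOX9 had a median of 4.69 CPM in gonads and 1.83 CPM in hearts, whereas DHH had 1.23 and 3.09 CPM. The kidney markers PAX2 (175 CPM), PAX8 (134 CPM), LHX1 (22.8 CPM) and NPHS1 (16.4 CPM) were present at these medians in the gonads, against 0, 4.17, 0 and 0.0428 CPM in the hearts, and the podocyte marker PODXL went the other way (96.1 against 209 CPM). Gonads is therefore used here as the label of these libraries. Which tissues they contain was not tested, and their levels are not read as those of testis cells. The 5 ventricular cardiomyocyte markers summed to 2069, 1399 and 337 CPM in the livers of fetuses 3, 4 and 5, against 2.24 to 38.6 CPM in the other livers. Nearly all of this was MYL2 (up to 2019 CPM), while MYH7 stayed at or below 47.0, HEY2 6.18, IRX4 0.894 and MYL3 0.519 CPM. The cardiomyocyte markers were also high in these livers (1611, 564 and 291 CPM), against 5.70 to 36.6 CPM in the other livers. Most of that was ACTC1 (up to 1579 CPM), and TNNT2 reached 28.8 CPM. In the blood of the dams of fetuses 2 and 5 the same list summed to 3849 and 1356 CPM, against at most 21.0 CPM in the others. There it was MYH7 (up to 3338 CPM) and MYL2 (up to 510 CPM), while MYL3, IRX4, HEY2 and the troponins TNNT2 and TNNI3 stayed at or below 1.47 CPM. The cardiomyocyte markers summed to 23.5 and 14.9 CPM in the same blood libraries, against at most 1.68 CPM in the others. Among these markers MYH6 reached 20.3 CPM and ACTC1 2.22 CPM.

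Levels across the organs were compared to ask where each gene of the system is expressed at the end of organogenesis. NPPA and NPPB were abundant in every heart and nearly or entirely absent elsewhere. NPPC, NPR3 and CORIN were also higher in the heart than in the gonads and liver. NPR1 was highest in the libraries labelled gonads, and NPR2 was shared by these and the heart. In all, 5 of the 7 genes were higher in heart than in each other organ, where 11.1% of all genes tested were. Levels below are CPM normalized over the 26 organ libraries, and they are not compared between genes, because no transcript lengths were used.

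**Figure D1:**
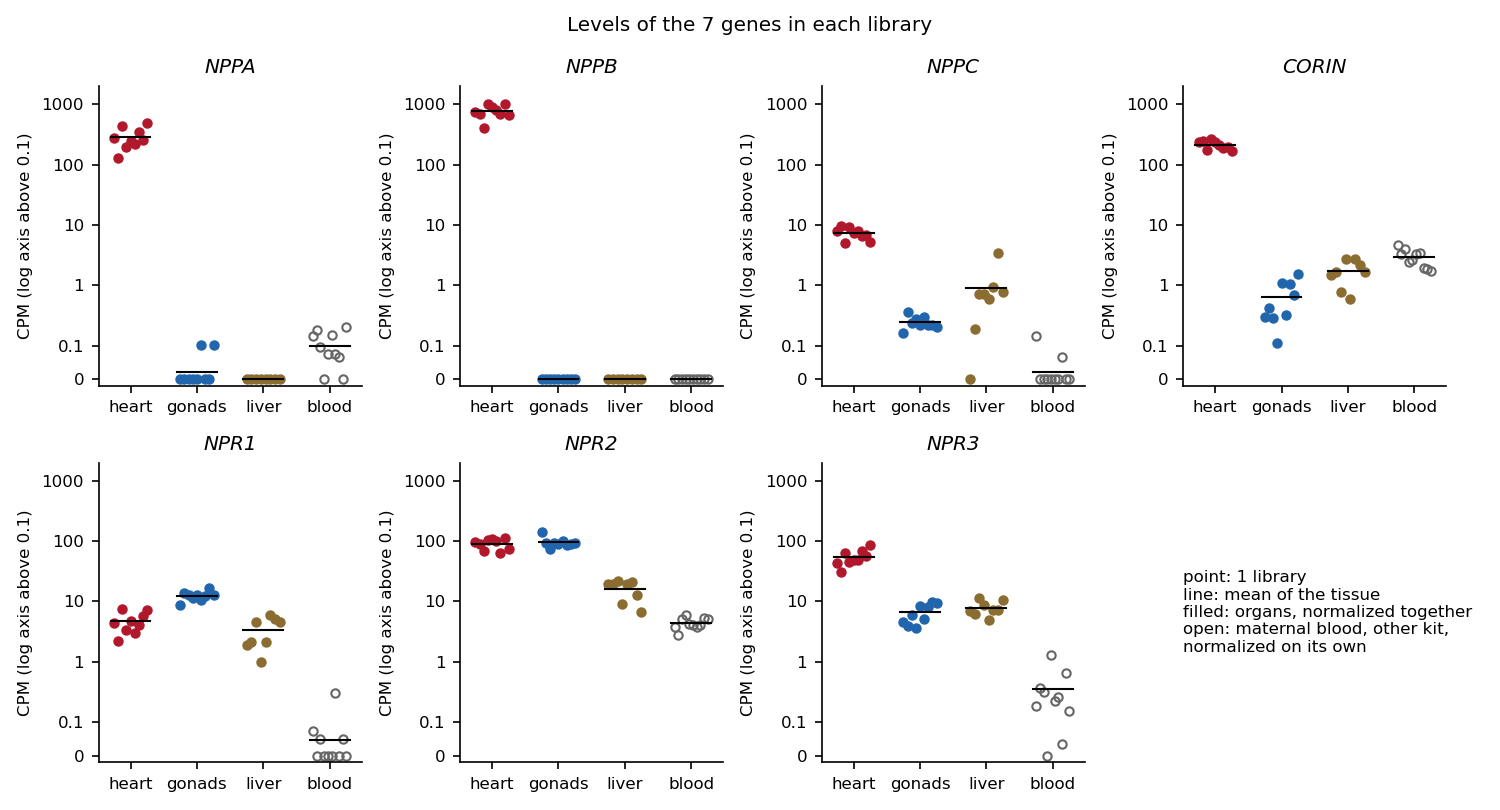
CPM of each gene (vertical axis, linear from 0 to 0.1 and logarithmic above) in every library of heart, gonads, liver and maternal blood; points are libraries in order of fetal weight within a tissue, lines are means, and blood was normalized on its own. All 9 hearts lie above all gonads and livers for NPPA, NPPB, NPPC, NPR3 and CORIN, whereas NPR2 overlaps between heart and gonads.

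NPPA (Entrez 281355) was read in the hearts at 271, 128, 439, 197, 247, 220, 352, 256 and 484 CPM in fetuses 1, 2, 3, 4, 5, 6, 8, 9 and 10. The hearts of fetuses 10 and 3 were the highest and that of fetus 2 the lowest. Among the gonads, 7 libraries held 0 counts, and those of fetuses 7 and 10 held 5 and 6 counts. All 8 liver libraries held 0 counts, including the 3 with high MYL2 and ACTC1. The heart mean was 288 ± 115 CPM (SD, n = 9), with a log2 fold change of 13.38 over the gonads (SE 0.514, adjusted p = 3.84e-15, edgeR quasi-likelihood test). Against the liver it was at least 15474-fold higher, taking 3 counts over the whole liver group as the limit that a count of 0 allows.

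NPPB (Entrez 508734) was read at 732, 675, 402, 993, 905, 795, 689, 1000.3 and 655 CPM in the same hearts. Here the heart of fetus 3, second highest for NPPA, was the lowest. No gonad, liver or blood library held a count of NPPB. Its mean of 761 ± 189 CPM (SD, n = 9) was at least 120112-fold above the gonads and at least 40849-fold above the liver (adjusted p = 1.4e-13 against the gonads, edgeR). NPPA and NPPB are neighbors in the bovine gene order of the ARS-UCD2.0 annotation.

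NPPC (Entrez 281356) was a low-level transcript. The hearts ranged from 4.94 CPM (fetus 3) through a median of 7.37 to 9.73 CPM (fetus 2), and the gonads from 0.162 to 0.361 CPM, or 6 to 19 counts. In the liver, fetus 1 held 0 counts, fetus 9 held 68 counts (3.41 CPM), and the other 6 lay between 0.186 and 0.928 CPM. The heart did not overlap with either organ. Its log2 fold change was 4.87 over the gonads (SE 0.514, adjusted p = 5.85e-09, edgeR) and 2.99 over the liver (SE 0.496, adjusted p = 7.91e-06). The liver in turn was above the gonads, with a log2 fold change for gonads over liver of -1.88 (SE 0.475, adjusted p = 0.00113).

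CORIN (Entrez 527107) was also a heart transcript. Its level was 165 to 263 CPM in the hearts (median 215), 0.109 to 1.56 CPM in the gonads (median 0.418) and 0.586 to 2.699 CPM in the livers (median 1.65). Hearts were far apart from the other organs, while gonads and livers overlapped. The log2 fold change of the heart was 8.35 over the gonads (SE 0.404, adjusted p = 4.52e-16, edgeR) and 6.98 over the liver (SE 0.405, adjusted p = 1.01e-14). The log2 fold change of the gonads over the liver was -1.38 (SE 0.358, adjusted p = 0.00151).

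Among the receptors, NPR3 (Entrez 281358), the clearance receptor, was the one enriched in the heart. Hearts held 31.2 CPM (fetus 2) to 87.3 CPM (fetus 10), with a median of 48.6, against 3.57 to 9.96 CPM in the gonads and 4.92 to 11.5 CPM in the livers. The log2 fold change was 3.06 over the gonads (SE 0.227, adjusted p = 5.26e-12, edgeR) and 2.80 over the liver (SE 0.237, adjusted p = 3.6e-11). Gonads and liver overlapped, and their log2 difference (gonads minus liver) of -0.26 did not pass the test (SE 0.220, adjusted p = 0.309).

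NPR1 (Entrez 533048), the receptor for the heart peptides, had the opposite order. Gonads held 8.73 to 16.9 CPM, whereas hearts held 2.22 to 7.51 CPM and livers 0.988 to 5.90 CPM. Every gonad library was above every heart and liver library. The log2 fold change of the heart over the gonads was -1.40 (SE 0.283, adjusted p = 0.000146, edgeR) and the gonads were above the liver by 1.87 (SE 0.300, adjusted p = 4.05e-06), so that NPR1 alone of the 7 genes was higher in gonads than in heart and liver alike, as 14.9% of all genes were. Heart and liver did not differ beyond their spread (0.47, SE 0.291, adjusted p = 0.172).

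NPR2 (Entrez 281357), the receptor for C-type natriuretic peptide, overlapped between the gonads (73.8 to 143 CPM, median 91.1) and the hearts (64.1 to 113 CPM, median 94.8), with a log2 difference of heart minus gonads of -0.07 (SE 0.179, adjusted p = 0.773, edgeR). Livers held 6.60 to 21.5 CPM and overlapped with neither. Both organs were above the liver, by a log2 fold change of 2.49 in the heart (SE 0.199, adjusted p = 1.09e-11) and 2.56 in the gonads (SE 0.199, adjusted p = 5.6e-12).

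Counted per comparison, 5 members were higher and 1 lower in the heart than in the gonads, where 23.5% of 25095 genes were higher and 23.1% lower. Against the liver, 6 were higher and 0 lower in the heart (27.9% and 30.7% of all genes). Between gonads and liver, 2 were higher in the gonads (30.8%) and 2 lower (33.6%), close to the shares of all genes. The median log2 fold change of the members was 4.87 for heart over gonads and 2.99 for heart over liver, against -0.08 and 0.00 over all genes.

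In maternal blood, normalized on its own, NPR2 (100 to 214 counts per library, 4.44 ± 0.966 CPM, SD, n = 10) and CORIN (57 to 166 counts, 2.94 ± 0.989 CPM) were read in all 10 libraries. NPR3 ranged from 0 counts (fetus 4) to 35 counts (fetus 5). NPPA had 0 to 8 counts and was seen in 8 libraries, with 8 and 2 counts in those of fetuses 2 and 5, which also held MYH7 and MYL2, and 8 counts in that of fetus 10. NPPC (6 counts in all) and NPR1 (14 counts in all) were at 0 in 8 and 6 libraries. The first 2 of these genes were thus measured in blood and the others were at or near the limit of detection.

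The other genes of the pathway were less uniform than the peptides. The shares of all genes against which their counts stand are 23.5% higher and 23.1% lower in heart than gonads, and 27.9% higher and 30.7% lower in heart than liver. Of 6 genes for peptide processing and breakdown, 3 were higher and 2 lower in the heart than in the gonads, and 2 were higher and 4 lower than in the liver. OSTN, which encodes an NPR3 ligand, was at 1.45 ± 0.378 CPM in the hearts and 0.0127 CPM in the gonads, and was at 0 in the livers. PCSK6, the convertase that activates corin, went the other way, with log2 fold changes for the heart of -1.48 against the gonads (adjusted p = 4.34e-09, edgeR) and -4.50 against the liver (adjusted p = 1.16e-18).

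Of 6 measured genes for other sources of cyclic GMP, 3 were higher and 2 lower in the heart than in the gonads, and 2 were higher and 1 lower than in the liver. GUCY2C, the guanylin receptor, was lower in heart than in gonads (-2.77, adjusted p = 4.31e-10, edgeR), as was the soluble cyclase subunit GUCY1A2 (-1.89, adjusted p = 3.88e-05), whereas against the liver GUCY1A1 was higher in the heart (2.75, adjusted p = 8.5e-16) and GUCY1A2 lower (-2.53, adjusted p = 5.99e-07). Of 10 cyclic GMP effectors and phosphodiesterases, 5 were higher and 1 lower in the heart than in the gonads, and 4 were higher and 2 lower than in the liver. Among them were the channel gene CNGA1 (4.11, adjusted p = 0.00524, with 0.544 ± 0.839 CPM in the hearts, SD, n = 9) and the kinase gene PRKG1 (1.77, adjusted p = 2.29e-10) over the gonads, and RGS2, which restrains G protein signaling, (2.41, adjusted p = 8.49e-05) and PDE3B (2.31, adjusted p = 1.91e-08) over the liver.

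The 12 cardiac transcription factors known to act on NPPA and NPPB were mostly higher in the heart. Against the gonads 10 were higher and 2 lower in the heart, and against the liver 11 were higher and 0 lower. GATA4 was at 299 CPM in the hearts, 0.0524 CPM in the gonads and 59.4 CPM in the livers. NKX2-5 was at 91.6 ± 22.5 CPM in the hearts and at 0 in the livers, and TBX5 was at 115 CPM in heart and 1.81 CPM in liver (adjusted p = 9.96e-10, edgeR). The 2 that were lower in the heart than in the gonads, TBX2 (-1.12, adjusted p = 5.68e-05) and TBX3 (-1.69, adjusted p = 0.000106), are repressors of NPPA in the embryonic heart.

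Between gonads and liver, where 30.8% of all genes were higher and 33.6% lower in the gonads, each of the 4 lists had members in both directions. Of the processing genes 1 was higher and 3 lower in the gonads, led by MME (neprilysin, which degrades the peptides; 5.67, adjusted p = 2.38e-08, edgeR) and PCSK6 (-3.02, adjusted p = 1.2e-15). Of the other cyclic GMP sources 2 were higher and 1 lower, including GUCY2C (2.51, adjusted p = 2.63e-09) and the nitric oxide synthase gene NOS3 (-2.46, adjusted p = 0.00448), which was uneven among the livers (24.7 ± 20.8 CPM, SD, n = 8). Of the effectors 3 were higher and 5 lower, including PDE3B (2.34, adjusted p = 1.23e-08) and CNGA1 (-3.88, adjusted p = 0.00595). Of the cardiac factors 5 were higher and 6 lower, with GATA4 (-10.08, adjusted p = 1.9e-20) and TBX20 (-4.10, adjusted p = 2.3e-05) furthest apart.

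Fetal weight was examined next, to ask whether the heart genes change with fetal growth. None of the 7 genes passed the adjusted test for a linear trend with weight in the heart, in which 6.77% of 16250 genes did (1100 genes). At an unadjusted p under 0.05 there were 2 of 7, NPR3 and CORIN, against 29.1% of all genes. On simulated counts with 100 genes changed at each size, this test recovered 3% of genes changed 2-fold over the weight range and 64% of those changed 4-fold. Levels in the following paragraphs are CPM normalized over the 9 hearts.

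**Figure D2:**
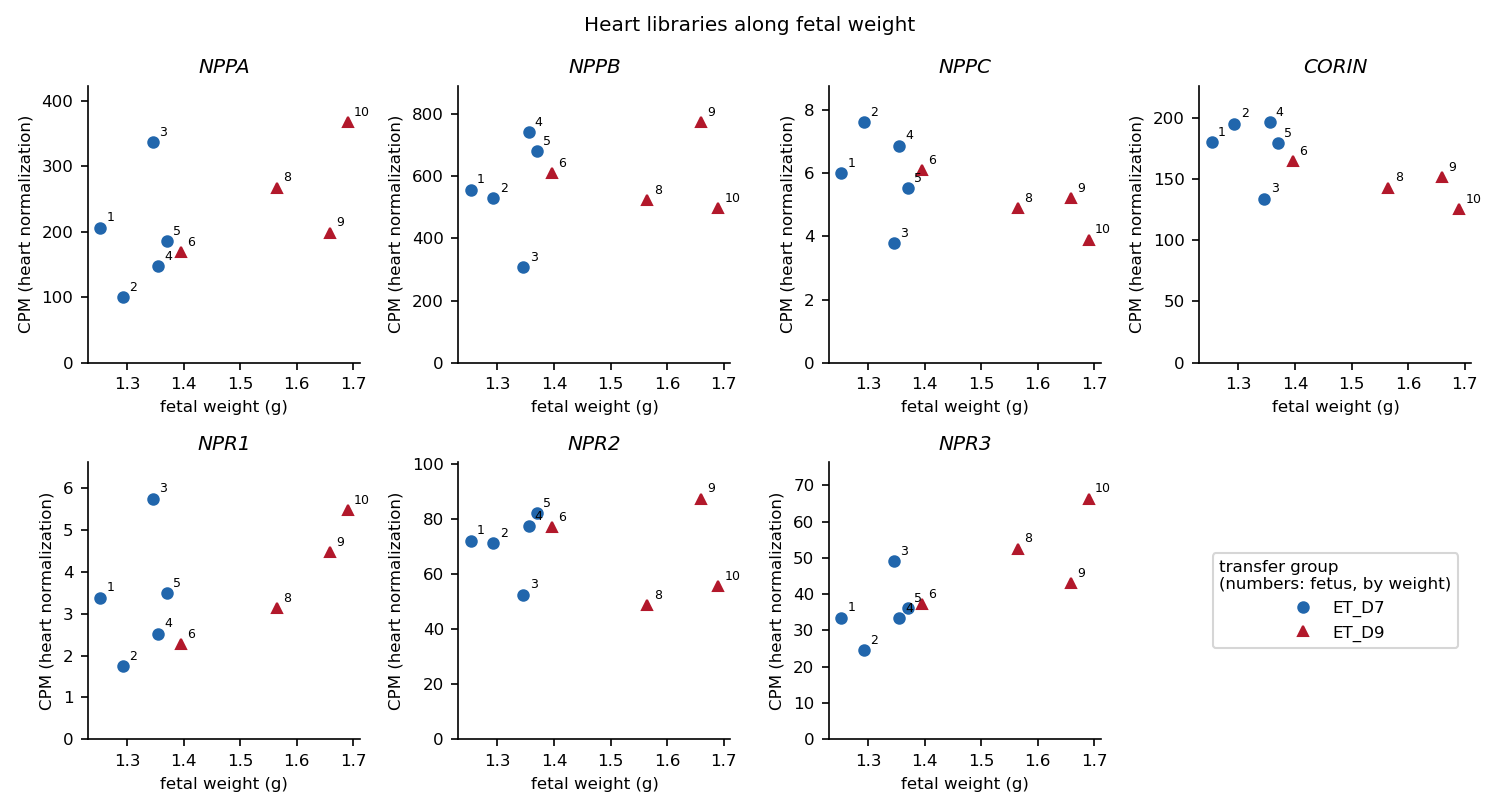
CPM of each gene in the 9 heart libraries (vertical axis, from 0) against fetal weight in g; circles are ET_D7 and triangles ET_D9 fetuses, numbered by weight. NPR3 ranges from 24.4 CPM in fetus 2 to 66.3 CPM in fetus 10, and fetus 3 stands apart from fetuses of like weight for every gene shown.

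NPR3 was at 33.5, 24.4, 49.2, 33.3, 36.1, 37.2, 52.5, 43.1 and 66.3 CPM in the hearts of fetuses 1, 2, 3, 4, 5, 6, 8, 9 and 10. The 3 heaviest fetuses were above all lighter ones except fetus 3. The slope was 0.20 log2 per 0.1 g (SE 0.0578, p = 0.00592, adjusted p = 0.0615, edgeR). Pearson's r with weight was 0.76 (exact permutation p = 0.0155, adjusted p = 0.113) and Spearman's rho 0.73 (exact permutation p = 0.0311). Leaving out the 2 fetuses farthest from the median weight gave r = 0.70 (exact permutation p = 0.0875), and removing the transfer group means gave r = 0.57 (exact permutation p = 0.133). The ET_D9 hearts exceeded the ET_D7 hearts by 0.49 on the log2 scale (SE 0.213, adjusted p = 0.192, edgeR).

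CORIN was at 180, 195, 134, 197, 179, 165, 143, 151 and 125 CPM in the same order. The heaviest fetus had the lowest level, and fetus 3 again lay with the 3 heaviest. The slope was -0.11 (SE 0.0426, p = 0.0290, adjusted p = 0.126, edgeR), with r = -0.71 (exact permutation p = 0.0401, adjusted p = 0.163). By rank, rho equalled -0.63 (exact permutation p = 0.0760). Dropping the 2 heaviest fetuses left r at -0.55 over 7 hearts (exact permutation p = 0.213). Subtracting the mean of each transfer group gave -0.46 (exact permutation p = 0.178). By correlation 0% of all genes passed the adjusted test and 27.8% the unadjusted one.

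NPPA ranged 3.67-fold, from 100.2 CPM in fetus 2 to 368 CPM in fetus 10, and its slope of 0.17 had an SE of 0.0988 (adjusted p = 0.268, edgeR; r = 0.52). NPPB had no detectable trend (slope 0.04, SE 0.0791, adjusted p = 0.793; r = 0.16). NPPC had a slope of -0.12 (SE 0.0656, adjusted p = 0.232), NPR1 of 0.15 (SE 0.102, adjusted p = 0.344) and NPR2 of -0.03 (SE 0.0625, adjusted p = 0.747). A spline of weight with 3 degrees of freedom called 0 of the 7 and 0% of all genes (7.99% at an unadjusted p under 0.05), and the members' unadjusted p ranged from 0.0830 for NPR3 to 0.972 for NPPB. The comparison of ET_D9 with ET_D7 also called 0 of 7, against 0.0492% of all genes, with 1 member (NPR3) at an unadjusted p under 0.05 (24.6% of all genes).

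Single hearts decided these calls. Without fetus 3, a light fetus with a low mitochondrial share, 4 members passed the linear test: NPPA (0.23, adjusted p = 0.0482), NPPC (-0.15, adjusted p = 0.0485), NPR3 (0.23, adjusted p = 0.0120) and CORIN (-0.12, adjusted p = 0.0268, all edgeR). Over all genes that fit called 3947 in place of 1100. Without fetus 9, NPR3 passed alone among the members (0.25, adjusted p = 0.0368). The ET_D9 difference passed without fetus 3 for NPR3 (0.64, adjusted p = 0.0458, edgeR) and CORIN (-0.37, adjusted p = 0.0458). Calls over all 16250 genes moved as well. Leaving out 1 heart called 0 to 3947 of them along weight and 0 to 2846 for transfer group, in place of 8. DESeq2 on all 9 hearts called NPR3 (0.22, adjusted p = 0.00871), and it also called more of all genes than edgeR did. These member calls are therefore not read as particular to NPR3 or CORIN.

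The mitochondrial share of the heart libraries moved with these genes more closely than weight did. It was 45.1%, 57.3%, 23.5%, 41.5%, 40.8%, 39.0%, 25.5%, 28.5% and 17.1% in fetuses 1, 2, 3, 4, 5, 6, 8, 9 and 10, and it fell with weight (r = -0.76, exact permutation p = 0.0187, and rho = -0.72, exact permutation p = 0.0369). Log2 CPM correlated with it at r = -0.98 for NPR3 (exact permutation p = 2.76e-05, adjusted p = 0.00252), -0.92 for NPPA (adjusted p = 0.00495 by the same permutation test), -0.84 for NPR1 (adjusted p = 0.0220), 0.94 for CORIN (adjusted p = 0.00356) and 0.92 for NPPC (adjusted p = 0.00370). NPR2 (0.57) and NPPB (0.34) did not pass. These were 5 of 7 members, where 35% of all genes passed. Spearman's rho for the 5 was -0.97, -0.82, -0.72, 0.95 and 0.90.

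**Figure D3:**
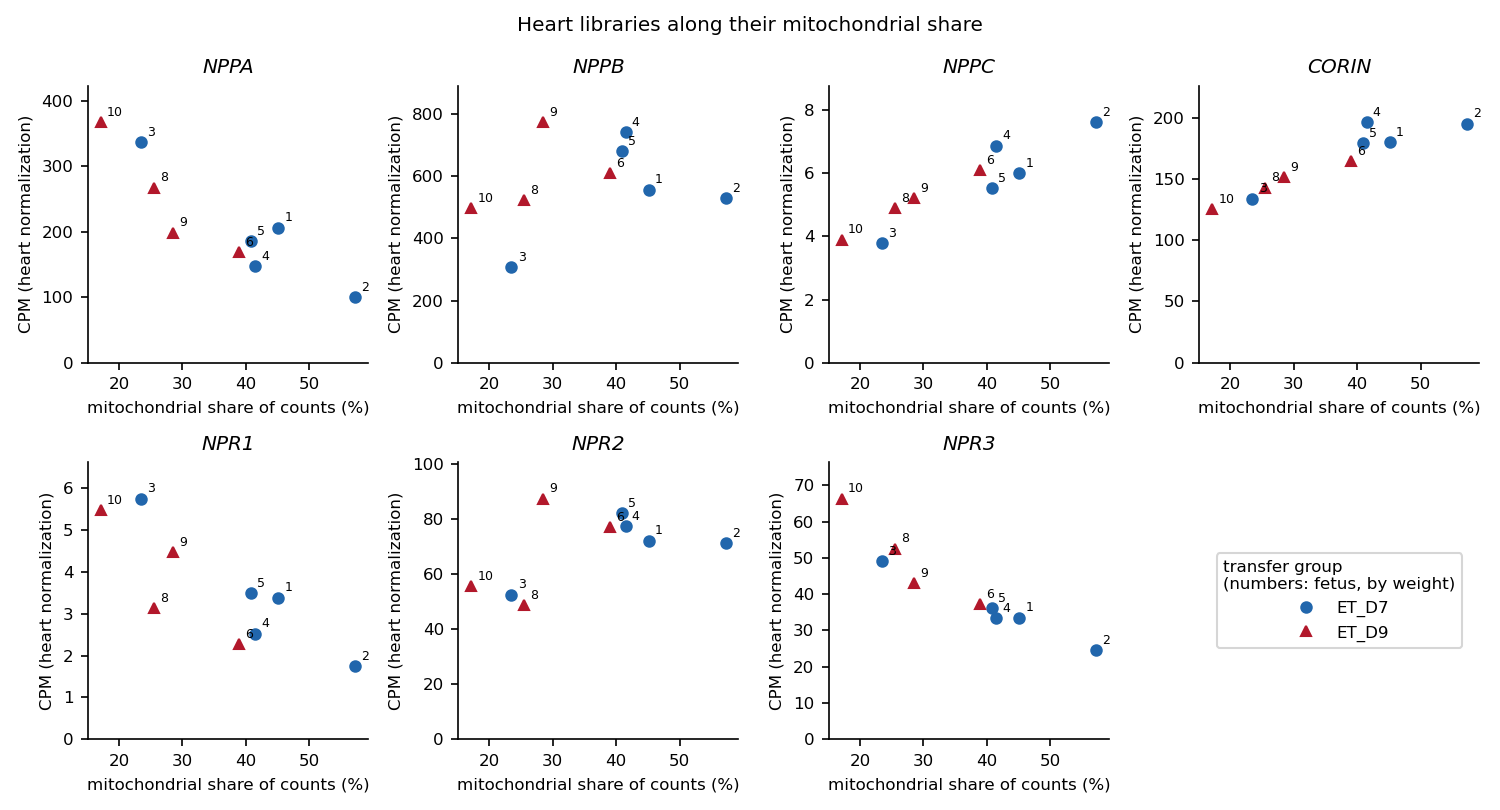
CPM of each gene in the 9 heart libraries (vertical axis, from 0) against the share of the library's counts on mitochondrially encoded genes in percent; circles are ET_D7 and triangles ET_D9 fetuses, numbered by weight. NPR3 and NPPA fall and CORIN and NPPC rise along the share, and fetus 3 lies with the heavier fetuses 8, 9 and 10.

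Normalizing without the mitochondrial genes left these correlations at -0.99 for NPR3, -0.94 for NPPA, -0.86 for NPR1, 0.89 for CORIN and 0.88 for NPPC. Without the 2 hearts of most extreme share, r was -0.96 for NPR3, -0.78 for NPPA, 0.94 for CORIN and 0.84 for NPPC (exact permutation p from 0.00198 to 0.0359), and that of NPR1 was -0.62 over these 7 hearts (exact permutation p = 0.148). With the mitochondrial share as a covariate, the slope of NPR3 with weight was 0.01 and that of CORIN 0.00, in place of 0.20 and -0.11, and NPPA went from 0.17 to -0.15 (adjusted p = 0.935, 0.985 and 0.559, edgeR). In that fit NPPB had a slope of 0.25 (p = 0.0259, adjusted p = 0.549), and no gene at all passed the adjusted test. The share and weight were themselves correlated over the 9 hearts (r = -0.76), so this fit separates weight from share only weakly. What sets the share in these libraries was not tested.

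Members also varied with each other across the 9 hearts. NPPA was higher where NPR3 (r = 0.94, exact permutation adjusted p = 0.00624) and NPR1 (r = 0.89, exact permutation adjusted p = 0.0133) were high and where NPPC (r = -0.96, exact permutation adjusted p = 0.00384) and CORIN (r = -0.91, exact permutation adjusted p = 0.00747) were low. Of all genes, 31.7% were called with NPPA by this test. Without the 2 hearts farthest from the median NPPA level these r were 0.83, 0.75, -0.94 and -0.87, with an exact permutation p of 0.0524 for NPR1 over these 7 hearts. All of these genes, NPPA included, also passed with the mitochondrial share. Whether they vary together apart from it was not tested. NPPA and NPPB, side by side in the genome and alike across the organs, had a negative r in the hearts that did not pass (-0.53, exact permutation p = 0.138, adjusted p = 0.242), and of -0.87 without the same 2 hearts (exact permutation p = 0.0105). Without the 2 hearts farthest from the median NPPB level, this r was -0.41 (exact permutation p = 0.366), so its size depended on which hearts were left out. NPPB was closest among the members to NPR2 (r = 0.78, exact permutation p = 0.00634, adjusted p = 0.135).

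Ratios of counts within a library need no normalization, and they show the same unequal change. The NPPA to NPPB count ratio was 0.370, 0.189, 1.09, 0.198, 0.273, 0.277, 0.510, 0.256 and 0.738 in fetuses 1, 2, 3, 4, 5, 6, 8, 9 and 10. It thus spanned 5.77-fold and was highest in fetus 3. Without transcript lengths, only its change between hearts is read. The log2 of this ratio had r = 0.28 with weight (exact permutation p = 0.467). The NPR3 to NPR2 count ratio ran from 0.343 in fetus 2 to 1.19 in fetus 10, and its log2 had r = 0.59 with weight (exact permutation p = 0.0819). The summed atrial markers ranged from 4352 CPM (fetus 3) to 6602 CPM (fetus 8) and the ventricular ones from 13146 to 16087 CPM, while cardiomyocyte markers were lowest in fetuses 3 (17154 CPM) and 10. Most of the atrial sum was MYL7 and MYL4 (medians 3107 and 1985 CPM), while BMP10, SLN and KCNA5 had medians of 0.345 CPM or less. KCNJ3 (26.4 CPM) was higher in the livers (65.1 CPM), and NR2F2 (27.4 CPM) in the gonads (572 CPM). The atrial sum is thus no measure of atrial content. The part of chamber composition in the NPPA differences was not tested.

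Pathway genes along weight in the heart are read against the 6.77% of all genes called. RGS2 (0.33, adjusted p = 0.0419, edgeR) and VASP (0.12, adjusted p = 0.0481), both substrates of the cyclic GMP-dependent kinase, rose as 2 of 9 effectors tested. The cardiac factor TBX20 rose (0.23, adjusted p = 0.0426) as 1 of 12, the cyclase subunit GUCY1A2 fell (-0.54, adjusted p = 0.0497) as 1 of 6, and 0 of the 6 processing genes passed. The spline, and the linear fits with transfer group or mitochondrial share as a covariate, called 0 genes in all.

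In the other tissues 5 members had enough counts to be tested along weight in gonads, 5 in liver and 3 (NPR2, NPR3 and CORIN) in blood. NPPA and NPPB were tested in none of them. No member tested passed the adjusted test, which 0% of all genes passed in gonads, 2.23% in liver and 0% in blood. The unadjusted threshold of 0.05 was passed by NPR3 and CORIN in gonads (5.62% of all genes), NPPC in liver (17.2%) and CORIN in blood (9.69%). NPR3 in the libraries labelled gonads was 4.65, 3.99, 6.01, 3.57, 8.34, 5.03, 8.09, 9.96 and 9.55 CPM (organ normalization) in fetuses 1, 3, 4, 5, 6, 7, 8, 9 and 10. The 3 heaviest fetuses and fetus 6 had the highest levels, with a slope of 0.27 (SE 0.0784, p = 0.00583, adjusted p = 0.849, edgeR). The difference of its heart minus its gonad slope was -0.06 (SE 0.114). CORIN had slopes of -0.11 in heart, 0.48 in gonads (SE 0.193, adjusted p = 0.849) and -0.27 in blood (SE 0.0808, adjusted p = 0.404), and the difference of heart minus gonad slope was -0.59 (SE 0.188, p = 0.00454, adjusted p = 0.444). The gonad slope of CORIN rests on low counts (7 to 92 per library).

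**Figure D4:**
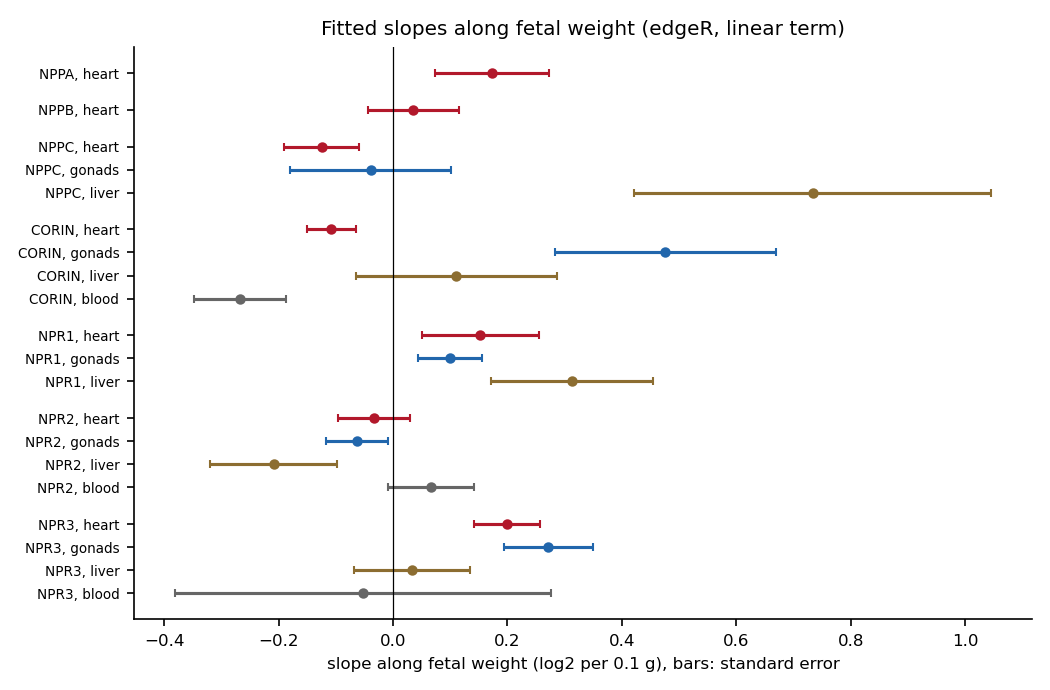
Fitted slope of each gene along fetal weight in log2 per 0.1 g (horizontal axis) in each tissue where it was tested; bars are standard errors. NPR3 has positive slopes in heart (0.20) and gonads (0.27), CORIN is negative in heart and blood and positive in gonads (7 to 92 counts per library), and NPPC in the liver (0.73) has the widest distance from its heart slope (-0.12).

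NPPC was the one member whose slope passed a test between organs. Its slope was -0.12 in the heart and 0.73 in the liver (SE 0.312, adjusted p = 0.266), and in the joint fit the heart minus the liver slope was -0.87 (SE 0.236, adjusted p = 0.0232, edgeR), where 8.15% of genes were called. With fetus as a replicate block the difference was -0.89 and missed the threshold (adjusted p = 0.0604). Without the liver of fetus 9, which held 68 of the 146 liver counts, it was -0.59 (adjusted p = 0.199).

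The genes most like each member were found by Pearson's r of log2 CPM, given as a description. Across the 9 hearts these were RNFT1 (0.99), KCTD18 and CSPP1 for NPPA, DOK7 (0.99) and LOC100296627 for NPPB, and MICOS13, KEH36_t22 and POLR2F for NPPC. The receptors were matched by GUCD1, TULP4 and MZF1 (NPR1), DYNC1H1, KAT14 and BPHL (NPR2), and ISCA1, HMGN2 and LAMTOR2 (NPR3), and CORIN by PDK2, a gene without a symbol and KHNYN. All of these r were 0.979 or above, and the 9 libraries share the range of mitochondrial share given above. Across the 26 organ libraries, NPPA and NPPB had the same leading pair, a gene without a symbol and MYL4, the atrial myosin light chain (r = 0.99 for NPPA). NPPB itself came next for NPPA (0.99) and CACNG6 next for NPPB. NPPC was nearest to the cardiac troponin gene TNNC1 (0.94), STC1 and LOC101904579, NPR3 to PDLIM5 (0.97), PTGER3 and PKIA, and CORIN to LOC784007 (0.99), PTGER3 and PODXL. NPR1 was nearest to SSH3 (0.96), CDCA7L and PARG, and NPR2 to CD37 (0.99), ZNF821 and CUX2. These r mostly follow the organ means.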

How the data were processed

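Per the labels and the study's methods, organ RNA was prepared with a stranded mRNA kit and maternal blood RNA with another stranded kit. The authors trimmed reads with Trimmomatic, mapped them with STAR 2.7.0b to ARS-UCD1.3 and deposited whole-number counts per gene from featureCounts (Subread 2.0.3). Options for strand and read pairs are not given in the sources used here. Among values of 1 to 20, a median of 69.7% to 85.4% were even in the 4 tissues, so single counts may not be single fragments, and limits from counts of 0 cover counting error only.

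Symbols came from the RefSeq table of ARS-UCD2.0 by Entrez identifier (31630 of 35092 rows matched). From its positions only the list of mitochondrial genes and the order of NPPA and NPPB were taken. Counts were tested with edgeR 4.0.16 (TMM, quasi-likelihood, two-sided, Benjamini-Hochberg over all genes, called under 0.05): organs in 1 fit of 26 libraries over genes with at least 1 count, weight and transfer group within tissues over genes with at least 10 counts in 4 libraries. Correlations used log2 CPM (prior count 1) and exact permutation, adjusted over 16250 genes. Organs with the same animal number come from the same fetus. The deviations of such pairs correlated little (median r 0.0125 over 23 pairs, against -0.00613 over 202 pairs of different fetuses). DESeq2 1.42.0 and an additive model (mgcv 1.9.3) were alternatives. The organ test on simulated data recovered 80% of 2-fold changes. Members and gene lists were chosen with earlier results of these data known. All members are named. Of each pathway list the 2 genes with the largest called change per organ comparison and for weight in the heart are named, and of each likeness search the first 3, except 1 gene that is not reported here. TBX2 and TBX3 were named after their values were seen.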

Additional observations from a re-analysis of the deposited data

Results flagged for a closer look

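Of 24 groups of libraries examined for a single sample far from the rest, 5 held one. The limit used flags about 1 in 20 groups of normally distributed values. Groups with many counts at or near 0 are not so distributed, so no excess over chance is read from this number. NPPC in the liver of fetus 9 stood at 2.81 CPM on the liver normalization (68 counts), against 0.634 CPM in the next liver. NPR2 in the gonads of fetus 1, the lightest, stood at 219 CPM on the gonad normalization, against 168 CPM in the next. The others were low counts in maternal blood. NPR3 reached 1.31 CPM (35 counts) in the heifer of fetus 5, against 0.662 CPM in the next. That library is one of the 2 that held MYH7 and MYL2. NPR1 reached 0.301 CPM (8 counts) in that of fetus 7, and NPPC 0.146 CPM (4 counts) in that of fetus 1.

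The slope of NPPC along fetal weight differed between heart and liver by -0.87 log2 per 0.1 g in the test of the difference itself. Without the liver of fetus 9 it was -0.59 and no longer passed (adjusted p = 0.199, edgeR).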

How the results depend on the processing

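The 16 called and 4 uncalled organ differences of the members kept direction and side of the threshold under every alternative tried for them: DESeq2, the filter of 10 counts, the replicate block of fetus, mitochondrial genes left out, and livers of fetuses 3 to 5 left out. The replicate block (paired by fetus) ended 1 member call, NPPC between heart and liver slopes (-0.89), and no other. Over all members 483 of 520 recomputed values kept both direction and call.

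Calls along heart weight depended on the method. Members called were 0 with edgeR, 1 with DESeq2 and 2 with the additive model (NPR3, adjusted p = 0.0126, and CORIN, adjusted p = 0.0285), and 0 to 4 when 1 heart was left out (0 to 3 by correlation, and 0 to 2 for transfer group). All genes called were 1100, but 0 with transfer group or mitochondrial share as a covariate, 706 with a filter of 1 count, 3073 with DESeq2, 4344 with the additive model and 0 to 3947 without 1 heart. For transfer group they were 8, but 2155 with DESeq2 and 0 to 2846 without 1 heart. In the liver 371 became 0 with the covariate and 23 to 740 without 1 library, and in blood 0 became 0 to 2. For slopes between organs, the replicate block moved 7 to 0 (heart and gonads), 1600 to 938 (heart and liver) and 1009 to 463 (gonads and liver), with members going from 1 to 0. Without the liver of fetus 9 they were 3, 955 and 645, with 0 members for heart and liver. The causes were not tested.

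Slopes that changed sign were all uncalled. With mitochondrial share as a covariate in the heart, NPPA was -0.154, NPPC 0.0761, NPR1 -0.107, NPR2 0.105 and CORIN 0.00259. With transfer group as a covariate, NPPC in gonads was 0.0160, CORIN in liver -0.271 and NPR3 in blood 0.455. Leaving out 1 library at a time gave ranges across 0 for the heart slopes of NPPB (-0.0358 to 0.0925, and r from -0.0826 to 0.330) and NPR2 (-0.120 to 0.00961), the gonad slopes of NPR2 (-0.0871 to 0.0181) and NPPC (-0.132 to 0.0154), the NPR3 slopes in liver (-0.0279 to 0.0833) and blood (-0.135 to 0.0710), and the transfer group differences of NPPB (-0.0646 to 0.215), NPR2 (-0.238 to 0.0412) and NPR1 (-0.0610 to 0.457).

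The 9 hearts limit the weight tests, and NPPA, NPPC and NPR1 in blood and NPPA in gonads rest on fewer than 10 counts per library. Counts per library were also low for NPPC and CORIN in gonads (6 to 19 and 7 to 92) and in liver (0 to 68 and 13 to 64). NPR3 in blood had 0 to 35. The covariate by mitochondrial share and the fit without the liver of fetus 9 were chosen after seeing the data.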
